A study of Zea mays with 13 samples.

Results

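H3K27me3 was compared between young maize leaves of plants that had gone through drought and recovered and leaves of plants that had been watered throughout. The comparison rests on 2 chromatin immunoprecipitation libraries of the 13 samples in the series, chosen by antibody, watering and time, and covers all 43943 features of the count table (43789 gene models and 154 microRNA genes). Both groups were the inbred B73, raised in a greenhouse with normal watering before treatment. Well-watered plants (NST7) then received 75% of disposable water for 10 days and were sampled after a further 7 days. Previously stressed plants (WST7) received 25% of disposable water for the same 10 days, and their leaves were taken after 7 days of recovery. Irrigation water had a salt concentration of 0.1 dS/m in both groups. The tissue was the immature leaf still wrapped by older leaves. The labels do not say how many plants stood behind a library or whether they were pooled, and each library is a mixture of all cell types of that leaf, so fewer cells that carry the mark and less of it per cell cannot be told apart. Whole chromatin came from 1 library of control plants after 10 days. The libraries of the same antibody at the end of the stress (T0, well watered and stressed) served for scaling, and their levels are given beside a result where they place it.

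H3K27me3 is the trimethylated lysine of histone H3 that Polycomb repressive complex 2 lays down. In plants it covers the bodies of silenced genes, among them developmental regulators kept off in a given organ, and it can be carried through cell division. It usually lies apart from H3K9ac, an acetylation of active promoters, while H3K4me3, another mark of active promoters, may be found with it at the same gene. The gene models are listed under IDs that the files and the reference table do not pair with names, so their functions are not given. The microRNA genes are named in the files.

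The previously stressed library held 1969485 counts over features and the well-watered one 1612935. With 1 library on each side there was no replicate, and no difference below was tested between the conditions. Counts were scaled by TMM, and 33860 features with at least 40 counts over the 4 H3K27me3 libraries were compared, with medians of 38 and 31 counts. A feature was called higher or lower when the scaled ratio was at least 1.5-fold and its exact binomial interval, at an error level of 0.1%, left out equality. Intervals cover counting error alone, take sequenced fragments as independent molecules, and hold nothing of the variation between plants or between immunoprecipitations.

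The well-watered T7 library stood apart from the other H3K27me3 libraries. Enrichment of a feature was its scaled count over the count of whole chromatin across the gene, set against the 25th percentile of the library, for 39580 features with at least 20 whole-chromatin counts. At the 95th percentile of features, enrichment was 4.48-fold in the previously stressed library and 3.61-fold in the well-watered library at T7, against 4.37-fold in well-watered and 4.09-fold in stressed plants at T0. At the 99th percentile it was 7.98-fold and 5.98-fold at T7, against 7.79-fold and 7.04-fold at T0. The medians, at 1.24-fold and 1.26-fold at T7, hardly differed, so the libraries parted in their strongly enriched features. With 1 library a side, how well each immunoprecipitation worked cannot be told apart from the history of the plants.

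**Figure D1:**
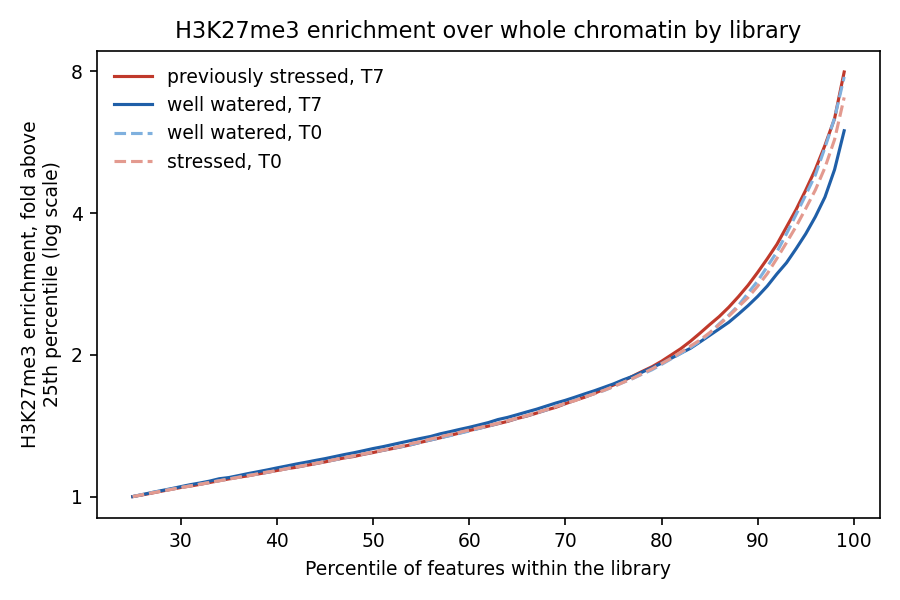
H3K27me3 enrichment over whole chromatin, as fold over that library's own 25th percentile (log scale), at each percentile of features, for the 4 H3K27me3 libraries. The lines run together up to about the 80th percentile and part above it, where the well-watered T7 library is the lowest, at 3.61-fold against 4.48-fold in previously stressed plants at the 95th percentile.

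Which features carried the mark was read from both T7 libraries. A feature was taken as marked when enrichment was at least 2-fold in both, which held for 5334 features (13.5% of those measured). A further 2174 features reached 2-fold in previously stressed plants alone and 1913 in well-watered plants alone, so the number of features at this level was alike. The libraries differed more at 4-fold. There 2451 features reached the level in previously stressed and 1525 in well-watered plants, 1358 of them in both. The marked features took 16.4% of the counts of the previously stressed library (exact binomial 95% interval 16.3 to 16.4) and 13.4% of those of the well-watered one (13.3 to 13.4). The same features took 16.1% and 14.96% of the counts of well-watered and stressed plants at T0.

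H3K27me3 at marked features was mostly higher in previously stressed plants. Over the 4871 marked features with enough counts the median log2 ratio of previously stressed over well-watered plants was 0.24 (quartiles 0.00 and 0.48), and 3641 of them (74.7%) lay above 0. Over all 33860 features compared the median was -0.01 (quartiles -0.26 and 0.27), with 49.2% above 0. Features marked in both T0 libraries, whose counts do not enter the ratio, gave a median of 0.29 over 4979 features, with 77.5% above 0. When the scaled counts of a marked feature were ordered over the 4 libraries, the well-watered T7 library was the lowest at 47.0% of the features and the highest at 13.7%. The previously stressed T7 library was the lowest at 7.86% and the highest at 37.1%. With features marked in both T0 libraries the well-watered T7 library was the lowest at 57.8%, and over all features compared at 27.2%. The choice of features high at T0 favours a T7 library as the lowest. The previously stressed T7 library was the lowest at 13.0% of the features marked in both T0 libraries.

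The ratio grew with the strength of the mark. In the first 8 deciles of enrichment the median log2 ratio lay between -0.08 and 0.02, it was 0.09 in decile 9, and 0.32 (quartiles 0.10 and 0.54) in decile 10, where 81.8% of 3371 features lay above 0. Deciles taken from the T0 libraries gave 0.09 and 0.34 for deciles 9 and 10. In bands of mean enrichment, the median was 0.18 for 4027 features at 2- to 4-fold, 0.35 for 1683 at 4- to 8-fold and 0.38 for 199 above 8-fold, against -0.05 for 27801 features under 2-fold. Counts summed over each of these bands gave log2 ratios of 0.23, 0.37, 0.38 and -0.06. The median was above 0 in marked features at every level of whole-chromatin counts, on which the precision of enrichment rests. The median of marked features was 0.18 at 20 to 49 whole-chromatin counts, 0.21 at 50 to 99, 0.26 at 100 to 199 and 0.32 at 200 or more. Features that were not marked lay at -0.03, -0.03 and -0.05 from 50 whole-chromatin counts upward. At 20 to 49, however, the 416 not marked that passed the count filter had a median of 0.21. Of these, 7 (1.68%) were called higher, against 6 of 1260 marked ones (0.476%). From 50 upward, 1.22%, 2.97% and 8.28% of marked features were called higher. Of those not marked, 0.123%, 0.0697% and 0.0815% were. The 150 features with too few whole-chromatin counts for an enrichment had a median of 0.36, with 75.3% above 0. The 416 had a median log2 enrichment of 1.01, at the 2-fold level of a marked feature. Those not marked had 0.58, 0.34 and 0.11 at the larger counts. At low whole-chromatin counts a ratio above 0 was thus also seen outside the definition of marked. That definition uses the same T7 counts as the ratio, so features at 2-fold in previously stressed plants alone fall among those not marked. The 150 have no enrichment, so whether they carry the mark could not be read. At low whole-chromatin counts the count filter keeps few features and favours enriched ones, so features of low enrichment could hardly be examined.

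**Figure D2:**
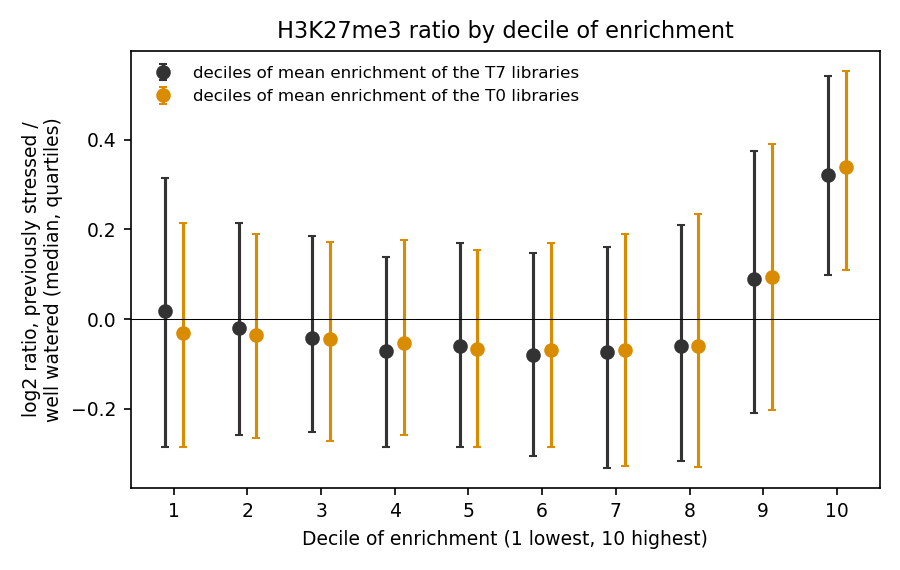
Median log2 ratio of H3K27me3 (previously stressed over well-watered plants at T7, bars from the lower to the upper quartile of features) in deciles of enrichment taken from the T7 libraries or from the T0 libraries. The medians stay near 0 up to decile 8 and reach 0.32 and 0.34 in decile 10.

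By the rule of size, 144 features held more H3K27me3 in previously stressed plants and 44 held less, which is 0.425% and 0.13% of the features compared. The fold was modest at most of the higher features, with a median log2 ratio of 0.83, and 49 of them reached 2-fold. Marked features made up 113 of the 144 (78.5%), where they were 14.4% of all features compared, and 12 had a mean enrichment above 8-fold. A further 21 reached the level of a marked feature in previously stressed plants alone. The median enrichment of the 144 was 5.75-fold in previously stressed and 3.01-fold in well-watered plants at T7, against 5.33-fold and 4.41-fold in well-watered and stressed plants at T0. The well-watered T7 library was the lowest of the 4 at 142 of these features, which the choice of the features favours.

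Features that were lower in previously stressed plants were rarely marked. By the T0 libraries, whose counts do not enter the ratio, 2 of the 44 were marked, against 127 of the 144 higher features and 4979 of the 33860 compared. By the T7 libraries 0 of the 44 were marked and 17 reached the level in well-watered plants alone, but these counts also decide the call. Their median enrichment was 0.866-fold in previously stressed and 1.82-fold in well-watered plants at T7, with 1.27-fold and 1.25-fold in stressed and well-watered plants at T0. Their median log2 ratio was -1.11, and 26 of them reached 2-fold. They had a median of 309 whole-chromatin counts, against 165 at the higher features and 213 over all features compared.

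**Figure D3:**
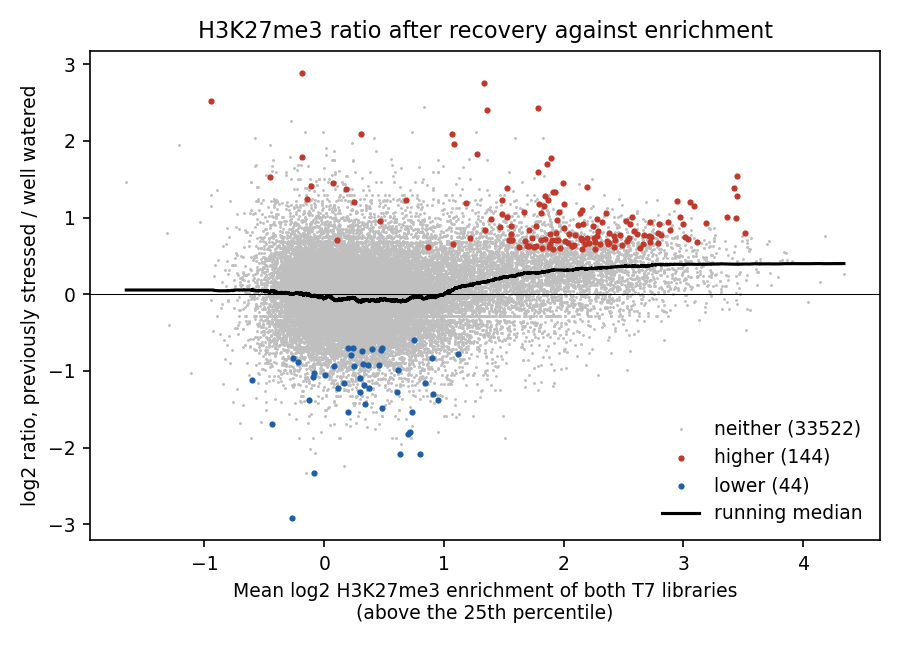
Log2 ratio of H3K27me3 (previously stressed over well-watered plants at T7) against mean log2 enrichment of both T7 libraries, 1 point for each compared feature with enough whole-chromatin counts, with called features in colour and the running median as a line. The 144 higher features lie mostly at high enrichment, the 44 lower ones at low enrichment, and the running median climbs from its lowest value of -0.11 to 0.40.

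The marked features with the largest ratios among the higher ones were Zm00001d046696 and Zm00001d048972. Zm00001d046696 held 65 counts in previously stressed and 18 in well-watered plants at T7, with 34 and 25 in well-watered and stressed plants at T0. Its enrichment was 18.8-fold and 6.32-fold at T7, and the T0 libraries lay between these, at 10.5-fold and 7.94-fold. These levels rest on 25 whole-chromatin counts, near the minimum of 20, and are imprecise. The log2 ratio was 1.54 (95% interval 0.80 to 2.41). Zm00001d048972 held 71 and 21 counts at T7 and 44 and 47 at T0, with a log2 ratio of 1.45 (0.75 to 2.25). Its T0 libraries again lay between the T7 libraries, an order that the choice of the largest ratios favours. Both features were marked by H3K4me3 and neither by H3K9ac, and neither was called for those marks.

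The lowest ratios belonged to thinly counted features that were not marked in both T7 libraries. Zm00001d038883 held 2 counts in previously stressed and 15 in well-watered plants at T7, with 14 and 12 in well-watered and stressed plants at T0, a log2 ratio of -2.92 (95% interval -6.36 to -1.09). Zm00001d025231 held 4 and 18 counts at T7 and 14 and 14 at T0, a log2 ratio of -2.33 (-4.48 to -0.85). At both, the previously stressed T7 library was the low one, which the choice of the lowest ratios favours, and the other 3 libraries lay together.

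Removal of the trend on enrichment by a running median took away most of the higher calls. It left 29 features higher and 35 lower (0.086% and 0.104% of 33710 features). Of the 144 higher features 23 were kept, which is 16.0%, and of the 44 lower ones 28, which is 63.6%. Of the 29, 6 (20.7%) were marked in both T7 libraries, beside 14.4% of all features compared. Zm00001d048972 was still called higher, at a log2 ratio of 1.13, and Zm00001d038883 lower, at -2.92, while Zm00001d046696 (1.15) and Zm00001d025231 (-2.31) were not called. Over marked features the median became -0.02, which removal of the trend brings about by its construction.

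Active marks were examined at the same features, with H3K4me3 and H3K9ac set against the whole-chromatin counts of the 1 kb around each start site. Since the window in which these marks were counted is not given, whole-gene counts were tried too. Among H3K27me3-marked features, the median log2 ratio of H3K27me3 was 0.28 where H3K4me3 stood without H3K9ac (3020 features), 0.19 without an active mark (1158) and 0.17 with both active marks (672). These classes also differed in enrichment, with medians of 1.95, 1.64 and 1.60 on the log2 scale. Within bands of enrichment the quartiles of the classes overlapped, which describes the spread of features and does not show that their medians are equal. In the same order of classes, the median ratios were 0.19 (1606 features), 0.13 (857) and 0.14 (509) at 2- to 4-fold. Enrichment still differed inside that band, with medians of 1.58, 1.47 and 1.47 on the log2 scale. At 4- to 8-fold the median ratios were 0.35 (1244), 0.36 (294) and 0.30 (141). Above 8-fold they were 0.40 (170), 0.26 (7) and 0.27 (22), where the latter classes hold few features. With whole-gene counts behind the active marks the order changed, to 0.29 for H3K4me3 alone, 0.30 without an active mark and 0.21 with both. H3K9ac alone, which held 6 compared features by the 1 kb window, then held 310, with a median of 0.05 and 56.5% above 0.

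**Figure D4:**
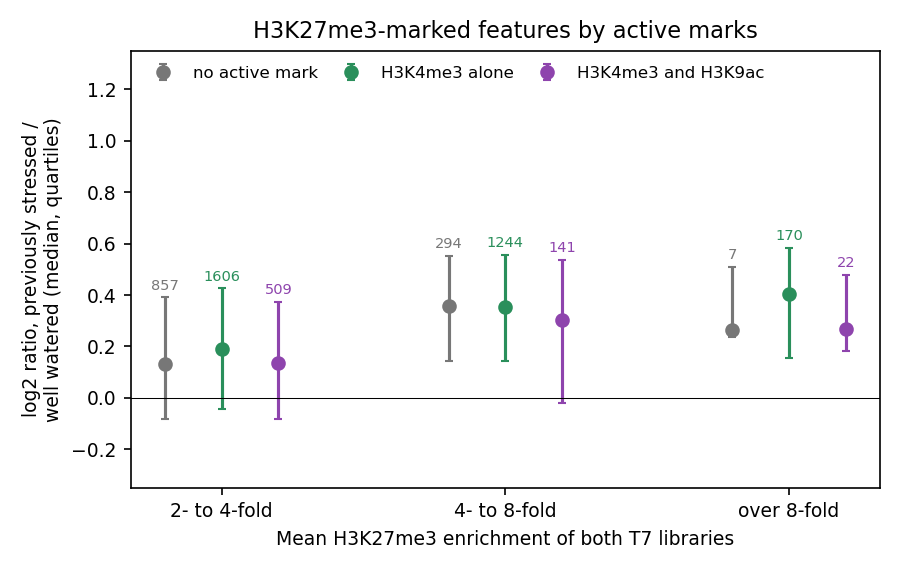
Median log2 ratio of H3K27me3 (previously stressed over well-watered plants at T7, bars from the lower to the upper quartile, number of features above each bar) at H3K27me3-marked features without an active mark, with H3K4me3 alone and with H3K4me3 and H3K9ac, in 3 bands of enrichment. All medians are above 0, and the quartiles of the classes overlap within each band.

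H3K4me3 stood at 107 of the 144 higher features (74.3%), a share near that of all marked features compared (75.8%), and at 26 of the 44 lower ones (59.1%), against 69.3% of all features compared. H3K9ac stood at 17 of the higher features (11.8%, against 13.9% of marked features) and at 17 of the lower ones (38.6%, against 38.8% of all features compared). With whole-gene counts, H3K4me3 stood at 46.5% and H3K9ac at 25.7% of the higher features, below the 71.1% and 56.1% of marked features. These sets were unlike in whole-chromatin counts, with medians of 165 at the higher and 79 at the marked features compared. At the lower features they stood at 34.1% and 25.0%, below the 54.1% and 34.5% of all features compared. The differences thus depend on the window. The antibodies were set against each other across features as a check of the labels. Enrichment of H3K27me3 had Spearman correlations of -0.25 and -0.18 with that of H3K4me3 in well-watered and previously stressed plants at T7, and -0.25 and -0.23 with that of H3K9ac (39427 features that share the whole-chromatin library). With whole-gene counts the correlations with H3K4me3 became -0.02 and 0.08, and those with H3K9ac 0.15 and 0.17, where both sides of the correlation share the same denominator.

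Features called for H3K27me3 were almost never called for an active mark by the same rule of size. For H3K4me3 at T7, 0.0982% of 35654 features were higher and 0.0869% lower in previously stressed plants, and of the 137 features higher for H3K27me3 with enough H3K4me3 counts none was called (0 higher and 0 lower). H3K9ac was higher at 0.0775% and lower at 0.116% of 41294 features, and of 141 features higher for H3K27me3 0 were higher and 1 was lower. At these background shares, 0 or 1 call among so few features is near the background. The 41 and 42 lower features with enough counts held 0 calls for either active mark. Log2 ratios of H3K4me3 had a median of 0.11 at the higher features (quartiles -0.12 and 0.27), 0.08 at all H3K27me3-marked features and 0.00 over all features. Those of H3K9ac had medians of 0.01, -0.08 and 0.00. At the lower features the medians were 0.03 for H3K4me3 and -0.02 for H3K9ac.

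MicroRNA genes were the features with names. These small genes give rise to hairpin transcripts, from which short RNAs are cut that silence messenger RNAs, and several families control leaf development and the change of phase. Their counts were low, with a median of 2 in either T7 library, at most 12 in any gene and a median of 9 whole-chromatin counts. A single gene of the 154, zma-MIR319a, passed the filter on counts, and it was not called. It lies outside the naming rule and was named after its values were seen, 10 and 5 counts in previously stressed and well-watered plants at T7 and 11 and 15 in well-watered and stressed plants at T0. Of 3 microRNA genes with enough whole-chromatin counts, zma-MIR167g was marked, with 12 and 6 counts at T7 and 8 and 7 at T0. It had 20 whole-chromatin counts, the minimum for an enrichment. Its log2 ratio was 0.66 (95% interval -0.81 to 2.41), so a difference was not detectable at this depth. Copies of a family are near-identical hairpins, and how reads that match several of them were counted is not given. Counts were therefore read as sums over families, which does not remove a read counted at more than 1 copy. Intervals of summed counts take each count as a separate fragment and would be too narrow where reads were counted more than once. Whether this happened was not tested.

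All 154 microRNA genes together held 462 counts in previously stressed and 301 in well-watered plants, a log2 ratio of 0.33 (95% interval 0.12 to 0.55). Of these genes, 79 had the higher scaled count in the previously stressed library, 61 in the well-watered one, and 14 had no count in either. Equal raw counts above 0 fall to the well-watered side after scaling. For each whole-chromatin count, microRNA genes held 1.87 times the H3K27me3 counts of gene models in previously stressed and 1.49 times in well-watered plants at T7, against 2.0 and 1.95 times in well-watered and stressed plants at T0. Gene models of similarly low whole-chromatin counts (at most 14, 3204 features) held 1.63 and 1.62 times at T7 and 1.502 and 1.508 times at T0 on the same measure. Against these, the level of microRNA genes was higher in previously stressed and lower in well-watered plants at T7, and higher in both groups at T0. No interval was computed for these levels, which rest on 462 and 301 microRNA counts at T7, so these directions were not tested. The log2 ratio of these gene models was 0.00 (-0.05 to 0.06). Of them, 1088 had the higher scaled count in the previously stressed library, 1229 in the well-watered one, and 887 had no count in either. They were matched on whole-chromatin counts and not on H3K27me3 level. Summed counts gave a log2 ratio of 0.30 over all marked features compared. Over the 150 compared features with too few whole-chromatin counts for an enrichment they gave 0.33.

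By family, 9 of 28 families held at least 40 counts over both T7 libraries, and 7 of these lay above 0. MIR167, which acts on auxin response factors, was the family whose 95% interval left out 0. It held 53 and 25 counts over 9 genes, a log2 ratio of 0.80 (0.09 to 1.55). At T0 it held 37 and 47 counts in well-watered and stressed plants, an order kept below, where counts are unscaled. Its members ranged from 0 to 12 counts in previously stressed plants and from 0 to 6 in well-watered plants. With 9 families examined and intervals for counting error alone, this is a description of the libraries, and its interval at an error level of 0.1% held 0. MIR156, which holds back the transcription factors of the change from juvenile to adult leaves, had 40 and 19 counts (0.79, -0.03 to 1.66). At T0 it held 49 and 45. MIR159, which acts on GAMYB transcription factors, had 32 and 18 counts (0.54, -0.33 to 1.46), with 31 and 26 at T0. MIR319, whose targets are TCP factors of leaf growth, had 35 and 20 counts (0.52, -0.31 to 1.39), with 43 and 39 at T0. MIR171, which acts on GRAS factors of the meristem, held 28 and 18 counts (0.35, -0.55 to 1.29), with 42 and 33 at T0. MIR395, which acts on sulfate assimilation, held 31 and 22 counts (0.21, -0.63 to 1.07), with 23 and 27 at T0. MIR169, which acts on NF-YA factors, held 37 and 30 counts (0.02, -0.72 to 0.76), with 40 and 41 at T0. MIR164, which limits the NAC factors of organ boundaries, held 30 and 25 counts (-0.02, -0.84 to 0.80), with 32 and 32 at T0. MIR166, which restricts HD-ZIP III factors to the upper side of the leaf, held 28 and 25 counts (-0.12, -0.95 to 0.72). At T0 it held 40 and 24.

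**Figure D5:**
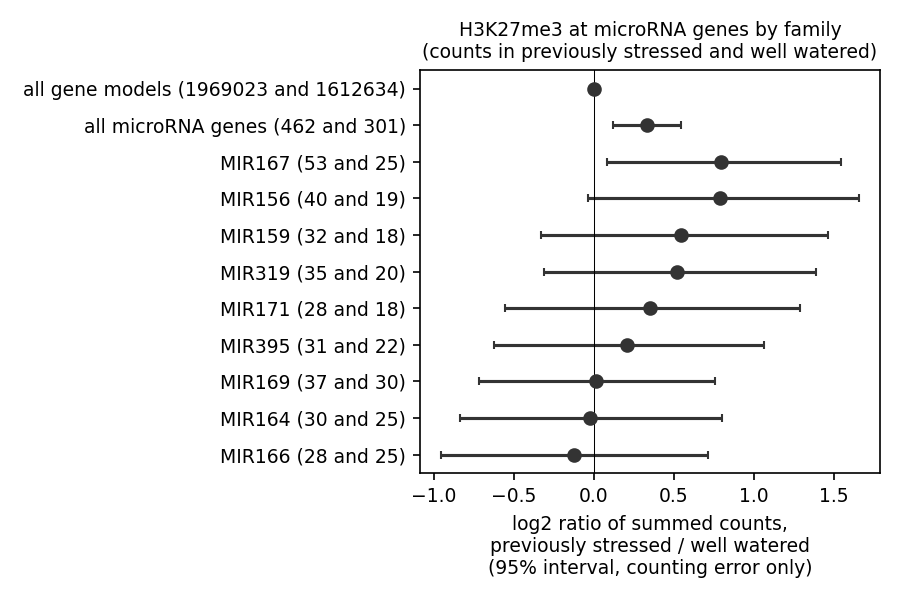
Log2 ratio of H3K27me3 counts (previously stressed over well-watered plants at T7) summed over the genes of each microRNA family with at least 40 counts, over all microRNA genes and over all gene models, with 95% intervals for counting error and both counts beside each name. MIR167 is the family whose interval leaves out 0, and all microRNA genes together lie at 0.33.

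Families grouped by function gave intervals that included 0 throughout. The families of phase change and flowering (MIR156, MIR172 and MIR529) held 65 and 35 counts, a log2 ratio of 0.61 (-0.01 to 1.24). Families of auxin signalling (MIR160, MIR167 and MIR393) gave 0.50 (-0.06 to 1.07), and those of leaf polarity, meristem and organ boundary 0.30 (-0.07 to 0.68) from 152 and 101 counts. Families of growth and gibberellin (MIR159 and MIR396) gave 0.35 (-0.36 to 1.07) and those of nutrient supply 0.34 (-0.14 to 0.83). The copper families MIR397, MIR398, MIR408 and MIR528 held 10 and 9 counts together (-0.13, -1.59 to 1.34), those of the microRNA pathway itself (MIR162 and MIR168) 2 and 4, and those of reproductive phased small RNAs (MIR2118 and MIR2275) 20 and 19 (-0.21, -1.19 to 0.77), so that differences there were not detectable at this depth.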

How the data were processed

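Counts of H3K27me3 in previously stressed and well-watered B73 leaves after recovery were analysed, with the T0 libraries for scaling and the H3K4me3, H3K9ac and whole-chromatin libraries for levels. The authors deposited raw read counts per feature, not normalized. CASAVA 1.8, Bowtie2 and the build B73 RefGen_v4 are named in the submitters' processing notes. The counting program, the count windows of the marks and the treatment of duplicates and of reads with several matches were not given in the sources used here. H3K27me3 counts had Spearman correlations of 0.91 and 0.89 with whole-gene whole-chromatin counts at T7 and were set against these.

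TMM factors came from edgeR 4.0.16 and size factors, as an alternative, from DESeq2 1.42.0 (R 4.3.3). All else used Python 3.11.15 with scipy 1.17.1. Log2 ratios of single features carry 0.5 counts in each library, and ratios of summed counts none. Intervals are exact conditional binomial (Clopper-Pearson) intervals. With 1 library per group, no count model was fitted and no p-value is given. Alternatives changed the scaling, the count filter, the fold and interval of the rule, the definition of a marked feature and the removal of trends.

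Gene models were named by rule: of the called features, the 2 highest among marked higher ones and the 2 lowest. MicroRNA genes were named when called or marked, and families when they held at least 40 counts; zma-MIR319a, MIR399 and MIR390 fall outside this rule. Groups and lists were chosen with earlier results of these data known. MicroRNA names were matched between tables without regard to case. None of the gene model IDs (0 of 43789) and 153 of 154 microRNA names occur in the RefSeq reference table.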

Additional observations from a re-analysis of the deposited data

How the results depend on the processing

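No paired analysis was possible because each group has 1 library. For the same reason no replicate could be left out, and no second library stands beside the well-watered T7 one. Scaling by total counts, DESeq2 size factors, TMM over the T7 libraries or background features moved the main counts of 144 higher and 44 lower by less than 1.5 times. These alternatives gave 143 to 170 higher and 36 to 44 lower, and medians over all features between -0.01 and 0.01. With the trend on enrichment removed, 29 features were higher, 6 of them marked (20.7%, beside 14.4% of all compared), the median of marked features was -0.022 and the difference between the highest and lowest deciles, 0.30 before, was -0.0026. Higher calls were then 45.3% of all calls, against 76.6%. A 2-fold rule gave 49 higher (25 marked) and 26 lower, and a 95% interval gave 1168 (493 marked) and 811. A filter at 200 counts gave 21 lower. Marked at 4-fold, 42 of the higher features were marked. The median of marked features was 0.26 with background features, 0.22 with no filter, 0.34 with at least 200 counts, 0.29 when marked from T0 or from all 4 libraries (0.292 and 0.288) and 0.30 when marked at 4-fold. The difference between deciles was 0.33 with the trend on abundance removed, 0.28 with no filter, 0.39 with at least 200 counts, 0.37 with deciles from T0 and 0.24 with at least 100 whole-chromatin counts. With whole-gene counts for the active marks, the median was 0.30 without an active mark and 0.21 with both. Why these values moved was not tested, apart from the trend removal and stricter rules, which act by construction. The log2 ratios of the named features and families kept their sign under every scaling and trend removal run for them (51 values in all). Depth limits single features: the rule needs a larger fold where counts are few, and microRNA genes could be read only as sums.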

Other observations

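MIR399, whose microRNA acts on a regulator of phosphate uptake, held 25 H3K27me3 counts in previously stressed and 7 in well-watered plants at T7 over its 10 genes, with 14 and 12 in well-watered and stressed plants at T0. The log2 ratio was 1.55 (95% interval 0.30 to 3.004). The family fell short of the 40 counts set for naming and was chosen after its values were seen, 1 of 2 among 28 families whose 95% interval lay above 0. Its gene with the most counts, zma-MIR399j, held 10 and 1 at T7 and 4 and 4 at T0. MIR390, which starts the small RNAs that act on auxin response factors, was also chosen after its values were seen. It held 19 and 6 counts over 2 genes (1.38, -0.004 to 2.99), against 18 and 16 at T0.

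Among the 44 features lower in previously stressed plants, 2 had consecutive ID numbers, Zm00001d038883 and the next in number, which held 6 and 22 counts at T7. Among the 144 higher features 0 had consecutive numbers. Positions of the gene models were not used here, so whether these features overlap or share reads was not tested.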
